A study of Rattus norvegicus with 115 samples.

Results

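Untreated brain from the hemisphere opposite a 9L tumour was compared between 2 times of the study, 8 d and 6 h. The arrays were chosen by their titles (untreated contralateral, 8 d or 6 h), and 9 of the 115 arrays of the series met the rule. They were 4 from 8 d (rats 39, 28, 29 and 30) and 5 from 6 h (rats 1 to 5). All were Fisher rats that had received 100000 9L cells, a rat glioblastoma line, in the right caudate nucleus. Other rats of the series were irradiated 10 days after implantation and sampled at the same labelled times; the rats described here carried a tumour but were not irradiated. The 8 d rats had therefore carried the tumour longer than the 6 h rats. Tumour growth, the age of the rats and any other change over that time cannot be told apart, since no rat without a tumour was among the samples. The labels give the tissue as normal brain and do not name the region dissected. Different rats were used at each time, and each array was made from 1 rat. For contralateral brain, p-values measure the spread between rats within groups, estimated over all 56 contralateral arrays, irradiated ones included.

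For reference, 4 untreated contralateral arrays from 48 h (rats 15 to 18) and 9 arrays of untreated 9L tumours (5 at 6 h and 4 at 8 d) were used. Contralateral brain of irradiated rats was used too. Microbeam radiation (MRT) gave 400 Gy in the beams and 18 Gy in the valleys between them, with 9 arrays at 6 h and 6 at 8 d. A broad beam (BB) gave a dose just under that of the MRT valleys, with 6 arrays at 6 h and 4 at 8 d. Levels are log2 of the deposited intensity, and differences are log2 differences ± standard error from limma. A gene was read from its brightest probe set and called at an adjusted p under 0.05, adjusted over all 31042 probe sets. Since the arrays measure RNA from whole tissue pieces, fewer cells of a type and less RNA per cell cannot be told apart.

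The 9 arrays had medians of 123 to 126 in deposited intensity, and the mean correlation of each with the others of its group was 0.983 or more. The 48 h array of rat 18 stood apart, with a median of 165 and a mean correlation of 0.902 with its group. Comparisons with the 48 h group are therefore given without it, and the counts over all genes with it too. Its array also enters the spread used between 8 d and 6 h. Some genes not called there were called without it, as given below. Neuronal genes marked the tissue as brain: the mean log2 level of 14 pan-neuronal genes was 11.80 to 12.08 in the 6 h arrays and 11.64 to 11.95 in the 8 d arrays. It was 8.07 to 9.54 in the untreated tumours of 8 d. None of these 14 genes was called between 8 d and 6 h, though Nefl was without rat 18 in the fit (-0.367, adjusted p = 0.036). Of the 14, 5 had an unadjusted p under 0.05, all lower at 8 d. Of all genes, 13.3% had such a p (944 higher and 941 lower), and counts of this kind below are to be read against that share. The 3′ minus 5′ log2 signal of β-actin, a sign of RNA quality, was 1.20 to 1.46 in 6 h rats 1, 2, 4 and 5, 2.11 in 6 h rat 3 and 1.75 to 2.19 in the 8 d rats. That of Gapdh was -0.18 to 0.43 at 6 h and 0.10 to 0.27 at 8 d. The part of RNA quality in the results was not tested.

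Between 6 h and 8 d, 368 of 31042 probe sets were called (1.19%), 237 higher and 131 lower at 8 d. Counted by gene, 148 of 14217 rose (1.04%) and 55 fell (0.387%). Counts of called genes in the lists below are to be read against these shares. Of these 203 genes, 69 rose and 12 fell by more than 1 on the log2 scale, and 126 of the rises and 46 of the falls had groups that did not overlap (0.886% and 0.324% of all genes). The median difference over all genes was -0.02. The count rested on a few rats: it was 162 probe sets without 8 d rat 30, 196 without 8 d rat 29, 220 without 6 h rat 4 and 1001 without 48 h rat 18, whose array enters the shared estimate of spread. With only the 9 arrays compared in the fit, 544 probe sets were called, 331 higher and 213 lower. Of 82 genes followed through the settings, 7 lost a call there and 6 gained one. With the spread taken from the 13 untreated contralateral arrays alone, rat 18 included, the differences stay as they are. In that setting 94 probe sets were called. Of the genes named below, B2m, Psmb9, RT1-T24-4, Cd14, Tyrobp, Slpi, Gbp2, Ifitm1, Fkbp5, Ddit4, Sgk1, Vim and Glul lost their calls there. So did S100a11, Ect2, Fn1, Postn, Igf2, Slc5a5, Slc22a8, Pclo, Camkk2, Kcnk12, Gask1b, Fam168a, Dhcr7 and Msmo1 (adjusted p from 0.052 in S100a11 and Gbp2 to 0.53 in Glul).

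Major histocompatibility complex (MHC) class II molecules present peptides from engulfed material to CD4+ T cells. Each is a pair of an alpha and a beta chain, assembled with the invariant chain Cd74, and in resting brain few cells carry them. In rats the RT1-D and RT1-B chains are the class II molecules, and the coactivator Ciita, together with factors that bind the X and Y boxes near the start of these genes, drives their transcription. The 4 class II chains and Cd74 were among the 8 called genes with the largest rises, the other three being S100a4, S100a6 and Plac8.

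RT1-Da, the alpha chain of RT1-D, measured 7.1, 7.5, 7.6, 6.9 and 7.3 in rats 1 to 5 at 6 h and 11.1, 9.9, 10.9 and 9.8 in rats 39, 28, 29 and 30 at 8 d. Every 8 d rat lay more than 2 log2 units above every 6 h rat, and the difference was 3.14 ± 0.40, or 8.82-fold (adjusted p = 2.8e-06). Its beta chain RT1-Db1 went from 5.7, 6.3, 5.5, 5.6 and 5.5 to 9.1, 7.9, 9.2 and 8.1 (difference 2.87 ± 0.39, adjusted p = 8.4e-06). The RT1-B alpha chain RT1-Ba was at 6.6 to 6.9 in the 5 rats of 6 h and at 9.7, 8.8, 9.7 and 8.5 at 8 d (2.44 ± 0.41, adjusted p = 0.00033). The beta chain RT1-Bb rose by 2.92 ± 0.39 (adjusted p = 7e-06). Cd74 measured 7.9, 8.2, 8.3, 7.6 and 8.0 at 6 h and 11.1, 10.7, 11.2 and 10.4 at 8 d, a 7.15-fold rise (2.84 ± 0.32, adjusted p = 3.4e-07). In all 5 genes the order of the 8 d rats was alike, with rats 39 and 29 above rats 28 and 30. Each of the 5 calls held when any 1 of the 13 untreated contralateral arrays was left out. RT1 genes are a family of similar sequences, and a probe set may read more than 1 member. For RT1-Ba 3 other probe sets differed by 0.14 to 0.24, 1 for RT1-Bb by 0.14 and 1 for RT1-Db1 by 1.26, none called. The probe set used for each gene was the brightest over all arrays of the series, tumours included. In 6 h brain 2 of the other RT1-Ba probe sets (7.95 and 8.20) and the other one for RT1-Db1 (6.74) were brighter than it. These rises therefore depend on the probe set read.

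The 4 chains lie near one another on rat chromosome 20, and the windows from 250 bases before to 50 bases after their annotated starts are shown because these 4 genes moved together. The sequences are from RefSeq (build GRCr8), read 5′ to 3′ along each gene, with matches to the Y box letters CTGATTGG and the X box letters GCAACNG in capitals. Both strands were searched. Several letter strings of known elements were tried on the windows of these and other called genes, and these were kept after their matches had been seen.
RT1-Da (chr20:4515165-4515464, + strand): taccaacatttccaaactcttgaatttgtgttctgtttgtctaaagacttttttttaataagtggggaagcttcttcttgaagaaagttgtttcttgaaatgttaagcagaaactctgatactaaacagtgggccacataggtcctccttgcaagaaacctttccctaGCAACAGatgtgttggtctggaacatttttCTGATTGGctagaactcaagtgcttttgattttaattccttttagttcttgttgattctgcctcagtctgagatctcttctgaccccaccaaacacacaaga
RT1-Db1 (chr20:4560113-4560412, - strand): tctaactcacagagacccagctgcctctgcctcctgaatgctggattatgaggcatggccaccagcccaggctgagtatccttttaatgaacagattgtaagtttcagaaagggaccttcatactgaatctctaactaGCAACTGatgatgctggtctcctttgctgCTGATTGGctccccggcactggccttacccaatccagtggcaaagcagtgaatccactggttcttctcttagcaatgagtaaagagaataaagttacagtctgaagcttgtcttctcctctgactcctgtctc
RT1-Ba (chr20:4576807-4577106, + strand): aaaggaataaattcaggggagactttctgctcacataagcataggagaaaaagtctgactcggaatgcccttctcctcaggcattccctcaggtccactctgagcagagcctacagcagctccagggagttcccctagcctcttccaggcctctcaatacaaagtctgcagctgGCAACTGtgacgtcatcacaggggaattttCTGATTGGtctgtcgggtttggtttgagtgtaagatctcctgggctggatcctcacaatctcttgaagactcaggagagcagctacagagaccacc
RT1-Bb (chr20:4604069-4604368, - strand): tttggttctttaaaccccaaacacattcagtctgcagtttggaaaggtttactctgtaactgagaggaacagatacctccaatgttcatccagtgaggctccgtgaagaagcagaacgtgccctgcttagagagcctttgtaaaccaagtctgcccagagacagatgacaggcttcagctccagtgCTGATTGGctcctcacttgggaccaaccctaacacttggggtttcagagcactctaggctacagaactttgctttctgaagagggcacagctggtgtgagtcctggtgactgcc
All 4 windows held CTGATTGG once, on the gene's own strand, with its first base 52 (RT1-Da), 83 (RT1-Db1), 46 (RT1-Ba) and 64 (RT1-Bb) bases before the start. It occurs in 3.5% of 33469 rat promoter windows of 300 bases. The windows of Pdk4 and Fkbp5, which rose too, also hold it, in Fkbp5 on the opposite strand. No match was found for Cd74. Of 12 genes looked up, 10 had a window. The letters GCAACNG lay 82, 112 and 76 bases before the start in RT1-Da, RT1-Db1 and RT1-Ba, and occur in 12.2% of windows; the RT1-Bb window has no match. The 2 motifs do not overlap in any of the windows. A match describes the letters of the window and is not a measured binding site.

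**Figure D1:**
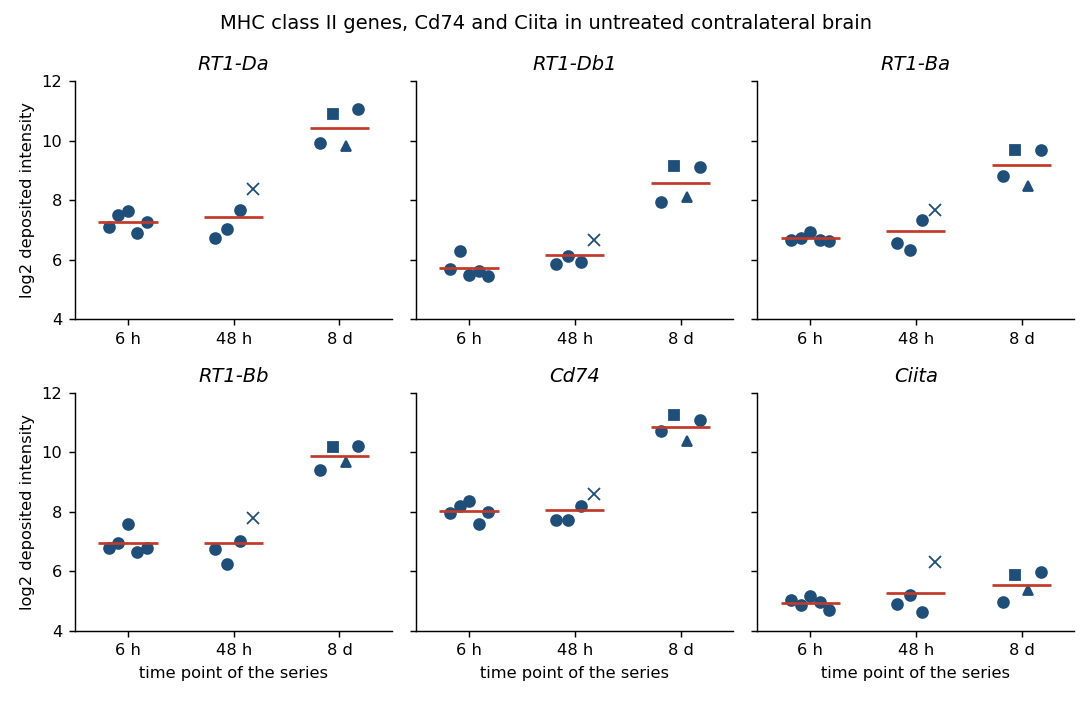
Log2 deposited intensity (vertical axis) of RT1-Da, RT1-Db1, RT1-Ba, RT1-Bb, Cd74 and Ciita in each untreated contralateral array at 6 h, 48 h and 8 d. Each point is 1 rat (square: rat 29; triangle: rat 30; cross: rat 18), red lines are group means, and all 4 rats of 8 d lie above all rats of 6 h and 48 h in every panel except Ciita.

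The rise of class II lay after 48 h. RT1-Da measured 6.7, 7.0, 7.7 and 8.4 in rats 15 to 18 at 48 h, with the highest value in rat 18, and Cd74 measured 7.7, 7.7, 8.2 and 8.6. Without rat 18, 48 h differed from 6 h by -0.14 in RT1-Da and -0.13 in Cd74 (adjusted p = 0.93 and 0.92). Without it 8 d exceeded 48 h by 3.29 ± 0.45 and 2.97 ± 0.37 (adjusted p = 9.2e-06 and 2.2e-06). With rat 18 kept, the last differences were 2.97 and 2.79. Over all genes, 199 rose (1.4%) and 123 fell (0.865%) between 48 h and 8 d without rat 18, against 12 (0.0844%) and 2 (0.0141%) between 6 h and 48 h. With rat 18, 22.7% of probe sets and of genes were called between 48 h and 8 d (genes 8.35% higher and 14.3% lower). Between 6 h and 48 h the shares were 18.9% of probe sets and 18.2% of genes (11.1% higher and 7.13% lower).

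Of the 20 measured antigen presentation genes, 7 rose and 0 fell (list median 0.48, against -0.02 over all genes), the 5 above plus 2 genes of the class I route. Psmb9, a subunit of the immunoproteasome that cuts peptides for class I, rose by 1.34 ± 0.32 (adjusted p = 0.021), with rat 28 at 7.2 and the other 8 d rats at 8.3 to 8.5. B2m, the light chain of class I, rose by 0.46 ± 0.12 (adjusted p = 0.042). Psmb9 lost its call without 6 h rat 4 or any one of 8 d rats 29, 30 and 39 (adjusted p up to 0.11). B2m lost it without any one of the 9 arrays compared (up to 0.15). With 8 d rats 29 and 30 both left out they differed by 0.985 and 0.437 (adjusted p = 0.55 and 0.43). Ciita measured 5.0, 4.9, 5.2, 5.0 and 4.7 at 6 h and 6.0, 5.0, 5.9 and 5.4 at 8 d; the groups overlapped and the difference of 0.59 ± 0.32 was not called (adjusted p = 0.44). RT1-T24-4, a class I gene outside the list, fell by 1.05 ± 0.20 (adjusted p = 0.0021), from 7.6 to 8.0 in the rats of 6 h to 7.2, 6.4, 7.1 and 6.3 at 8 d. Its adjusted p was 0.1 with only the 13 untreated arrays and 0.094 without 8 d rats 29 and 30. No listed marker of T, NK or B cells was called, where 1.43% of all genes were. Of 16 T and NK cell genes 0 were called (median 0.09), and 2 had an unadjusted p under 0.05, both higher (12.5% of the list, near the 13.3% of all genes). Of 5 B cell genes 0 were called (median 0.05), and 0 had an unadjusted p under 0.05.

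Transcripts that were bright in the tumours differed between the 8 d rats, and whether tumour cells were their source was not tested. Cdkn2a, a cell cycle inhibitor gene that was bright in the tumours (9.7 to 11.8 in the 9 untreated tumours of both times), measured 4.2 to 4.6 at 6 h and 4.5, 4.4, 6.3 and 7.4 in rats 39, 28, 29 and 30. The mean of 18 mitosis genes including Cdkn2a was 5.56 to 5.93 at 6 h, 6.18, 5.80, 6.79 and 7.61 in rats 39, 28, 29 and 30, and 9.40 to 10.81 in the tumours. None of the 18 was called, all 18 had a difference above 0 (median 0.87), and 14 had an unadjusted p under 0.05, all higher (77.8%, against 13.3% of all genes). Bub1, 1 of the 18, was called without 48 h rat 18 in the fit (1.3, adjusted p = 0.036). Rats 29 and 30 thus stood above the 6 h range on both measures and rat 39 on the mitosis mean alone. Their part in the results below was not tested beyond leaving them out or using the list mean as a covariate, both chosen after seeing these values. Leaving them out keeps 2 of the 4 rats of 8 d, so calls can be lost with the difference unchanged. Without rats 29 and 30, 24 genes rose (0.169%) and 5 fell (0.0352%), and with the covariate 62 rose (0.436%) and 38 fell (0.267%). The class II chains and Cd74 kept their calls in both. Without the pair the differences were 3.20 in RT1-Da, 2.82 in RT1-Db1, 2.52 in RT1-Ba, 2.86 in RT1-Bb and 2.88 in Cd74 (adjusted p from 0.00015 to 0.012). These rest on rats 39 and 28, whose Cdkn2a was within the 6 h range. The mitosis mean of rat 39 (6.18) was above its 6 h range. So was the mean of 14 tumour matrix genes in rats 39 and 28 (7.17 and 6.96, against 6.46 to 6.69 at 6 h). With the covariate they ran from 2.08 in RT1-Ba to 2.67 in RT1-Da.

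**Figure D2:**
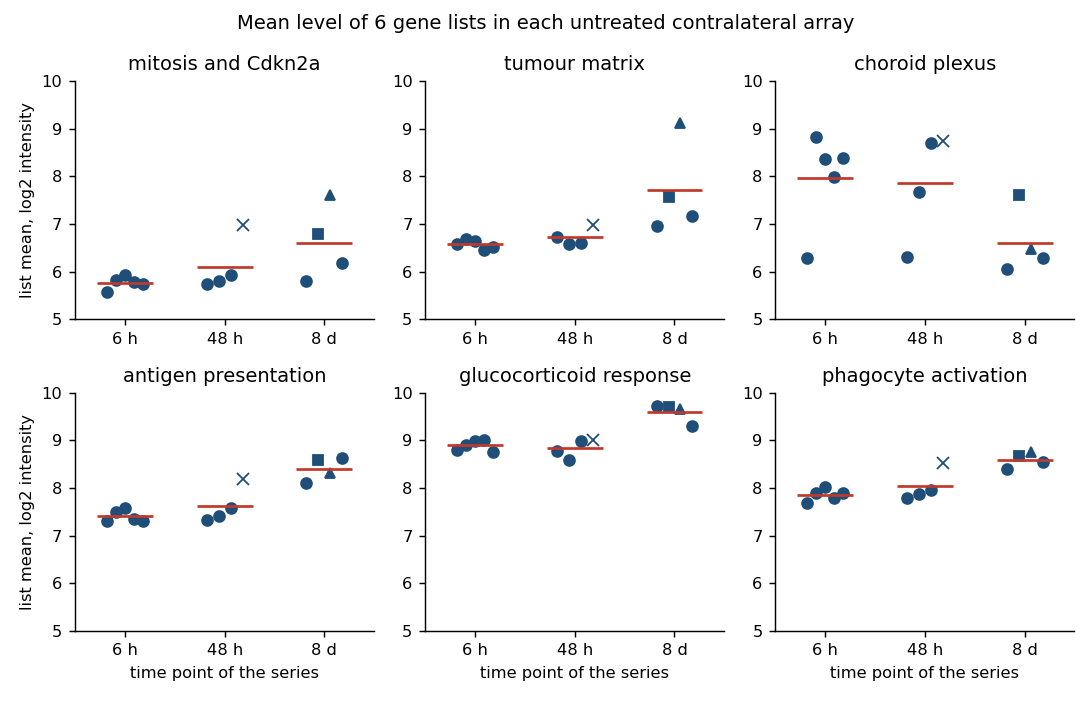
Mean log2 intensity (vertical axis) of 6 gene lists in each untreated contralateral array at 6 h, 48 h and 8 d; each point is 1 rat (square: rat 29; triangle: rat 30; cross: rat 18) and red lines are group means. Mitosis and matrix means are highest in rat 30 at 8 d (7.61 and 9.12), choroid plexus means split within each time, and the antigen presentation, glucocorticoid and phagocyte means of all 8 d rats exceed those of all 6 h rats.

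Microglia and infiltrating macrophages clear debris, tag synapses and cells with complement, and switch on lysosomal genes as they do so. Of 21 phagocyte activation genes, 9 rose and 0 fell (median 0.83). Gpnmb, a glycoprotein of lipid-laden phagocytes, measured 7.4, 7.9, 8.1, 7.7 and 7.8 at 6 h and 9.6, 9.8, 9.6 and 9.7 at 8 d. The 8 d rats were close together and above the 6 h group, at 3.76-fold (1.91 ± 0.27, adjusted p = 8.4e-06), and the call held without rats 29 and 30 (1.95, adjusted p = 0.002). The 3 chains of complement C1q, which starts the classical cascade, rose together. C1qa went from 10.0 to 10.1 in the 6 h rats to 11.1 to 11.3 in the 8 d rats (1.12 ± 0.20, adjusted p = 0.0011). C1qb rose by 1.10 ± 0.24 and C1qc by 1.01 ± 0.24. The galectin Lgals3 rose by 1.5 ± 0.31 (adjusted p = 0.004) and the endotoxin coreceptor Cd14 by 1.31 ± 0.30 (adjusted p = 0.015). The lysosomal marker Cd68 rose by 0.91 ± 0.24 (adjusted p = 0.041) and the signalling adaptor Tyrobp by 0.79 ± 0.18 (adjusted p = 0.012). Single arrays ended the calls of C1qc (6 h rats 1 and 5, 8 d rats 29 and 30), Cd14 (8 d rats 30 and 39) and Cd68 (6 h rats 2 to 5, 8 d rats 29, 30 and 39), with adjusted p up to 0.075, 0.12 and 0.14. Without rats 29 and 30, Gpnmb was the 1 gene of the 21 called, while the list median was 0.73. The differences were then 1.09 in C1qa, 1.11 in C1qb, 1.44 in Lgals3, 1.21 in Cd14 and 0.848 in Tyrobp (adjusted p from 0.061 to 0.28).

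Of 9 genes that mark resident microglia, 0 were called, where 1.43% of all genes were. The list still leaned higher, with 8 of the 9 differences above 0 (median 0.36). An unadjusted p under 0.05 was found in 3, all higher (33.3%, against 13.3% of all genes). The list mean was 7.85 to 8.03 in the 6 h rats and 8.15 to 8.68 in the 8 d rats. Aif1, the gene of the Iba1 protein that is widely used to stain microglia, measured 9.1, 8.8, 8.7, 8.8 and 9.2 at 6 h and 9.8, 9.6, 9.8 and 9.7 at 8 d (0.78 ± 0.28, adjusted p = 0.17). Its groups did not overlap, as was so for 3 of the 9 genes and for 3.73% of all genes in the same direction. Without 48 h rat 18 in the fit Aif1 was called (adjusted p = 0.025). A dimmer Aif1 probe set, at 6.56 in 6 h brain, differed by -0.09 (adjusted p = 0.88). None of 10 neutrophil and monocyte genes was called either, and 3 had an unadjusted p under 0.05, all higher (30%). Mrc1 of this list was called without 48 h rat 18 in the fit (0.884, adjusted p = 0.046).

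The chemokine gene Cxcl13, Plac8 and Slpi were among the largest single rises. Cxcl13, a chemokine that attracts B cells, measured 3.9 to 4.9 at 6 h, near the low end of the scale, and 7.0, 5.6, 7.3 and 7.2 at 8 d (2.40 ± 0.52, adjusted p = 0.0077). Plac8 went from 5.4 to 6.3 in the 6 h rats to 9.0, 7.4, 8.9 and 7.7 (2.53 ± 0.54, adjusted p = 0.0067). Slpi, a secreted protease inhibitor, spread widely at 8 d, with 9.3, 5.6, 8.6 and 7.2 against 4.9 to 5.5 at 6 h (2.36 ± 0.59, adjusted p = 0.029). It lost its call without any one of 6 arrays (6 h rats 3, 4 and 5, 8 d rats 29, 30 and 39; adjusted p up to 0.15). Of 32 interferon response genes, 3 rose and 0 fell (median 0.21), where 1.04% of all genes rose and 0.387% fell. Gbp2, a guanylate-binding protein, rose by 1.86 ± 0.38, Ifi27l2b by 1.63 ± 0.33 and Ifitm1 by 1.20 ± 0.33. In Gbp2, which is also on the reactive astrocyte list, the 8 d rats measured 7.9, 6.2, 8.0 and 8.5, and rat 28 was level with the highest 6 h rats at this rounding. Gbp2 and Ifi27l2b lost their calls without 8 d rat 30 (adjusted p = 0.058 and 0.066). Ifitm1, whose groups overlapped, lost it without any one of 8 arrays (6 h rats 1, 2, 4 and 5, 48 h rat 17, 8 d rats 29, 30 and 39; up to 0.23). None of the 3, nor Cxcl13, Plac8 or Slpi, was called without rats 29 and 30. The differences were then 2.47 in Plac8, 2.12 in Slpi, 1.95 in Cxcl13, 1.28 in Gbp2, 1.17 in Ifitm1 and 1.09 in Ifi27l2b (adjusted p from 0.16 to 0.46).

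Glucocorticoids are adrenal hormones that rise in illness and stress and switch on a set of genes in neurons, glia and vessels alike. Of 18 genes known to respond to them, 8 rose and 0 fell, and all 18 differences were above 0 (median 0.45). Mt2A, a metallothionein that binds zinc, measured 10.2, 10.4, 10.5, 10.5 and 10.3 at 6 h and 11.7, 12.2, 12.2 and 11.9 at 8 d (1.61 ± 0.22, 3.04-fold, adjusted p = 7e-06). Sult1a1, a sulfotransferase, went from 9.2, 9.0, 8.8, 8.8 and 8.8 to 10.3, 10.7, 10.8 and 10.1 (1.54 ± 0.23, adjusted p = 3.9e-05). Pdk4, a kinase that restrains glucose oxidation, rose by 1.64 ± 0.29 (adjusted p = 0.00091) and the growth regulator Ddit4 by 1.01 ± 0.22 (adjusted p = 0.0065). The receptor chaperone Fkbp5 rose by 0.85 ± 0.17 (adjusted p = 0.0035) and the kinase Sgk1 by 0.83 ± 0.22 (adjusted p = 0.047). Rat 39 had the lowest Fkbp5 (9.2), Sgk1 (11.4), Pdk4 (7.8) and Ddit4 (9.8) of the 8 d rats, so the order differed from that of class II. In Sgk1 the groups overlapped, and it lost its call without any one of 7 arrays (6 h rats 1, 2, 3 and 5, 8 d rats 28, 29 and 30; adjusted p up to 0.15). Ddit4 lost its call without 8 d rat 28 (0.056). Without rats 29 and 30, 2 of the 18 were called (median 0.50), Mt2A and Sult1a1 (1.56 and 1.55, adjusted p = 0.002 and 0.0048). Pdk4, Fkbp5, Ddit4 and Sgk1 then differed by 1.33, 0.77, 1.07 and 0.731 and lost their calls (adjusted p = 0.14, 0.18, 0.1 and 0.5). With the mitosis list as a covariate 4 of the 18 were called, Mt2A and Sult1a1 among them. Without rat 18, 9 of the 18 rose between 48 h and 8 d, and 0 were called between 6 h and 48 h.

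Reactive astrocytes enlarge and raise intermediate filaments and stress proteins around injury. Of 17 genes of this state, 7 rose and 0 fell (median 0.85). Timp1, an inhibitor of matrix proteases, measured 6.8, 6.7, 7.0, 5.9 and 6.5 at 6 h and 9.3, 8.4, 8.2 and 9.7 at 8 d (2.32 ± 0.44, adjusted p = 0.0018). Vim, the filament protein vimentin, went from 10.4 to 11.0 in the 6 h rats to 11.5, 11.8, 11.9 and 13.1 (1.5 ± 0.29, adjusted p = 0.0024). It lost its call without 8 d rat 30, the highest (0.053). Hspb1, a small heat shock protein, rose by 1.56 ± 0.35 (adjusted p = 0.012), although 8 d rat 29 at 8.4 lay below 6 h rat 3 at 8.5. It lost its call without 8 d rat 28 or 30 (up to 0.088). Gfap, the defining filament of astrocytes, measured 10.9, 12.1, 12.1, 12.1 and 11.6 at 6 h and 12.4, 13.1, 11.9 and 12.6 at 8 d. The groups overlapped and the difference of 0.74 ± 0.27 was not called (adjusted p = 0.17). Without 48 h rat 18 in the fit Gfap was called (adjusted p = 0.025). Of 11 general astrocyte genes, 1 rose, Glul (glutamine synthetase), by 0.33 ± 0.08 (adjusted p = 0.023; up to 0.085 without 6 h rat 3 or 5 or 8 d rat 29, 30 or 39). Timp1, Vim, Hspb1 and Glul were not called without rats 29 and 30, when the differences were 2.27, 1.11, 1.66 and 0.325. The gene of the 17 still called then was Cp, the copper carrier ceruloplasmin. Timp1 and Vim are also bright in the tumours (means of 12.4 and 14.0 at 6 h).

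The genes of the calcium-binding proteins S100a4, S100a6 and S100a11 were called, as were Lox, Anxa1 and Ect2. S100a4 measured 7.4 to 8.4 at 6 h and 9.8, 9.6, 11.3 and 12.1 in rats 39, 28, 29 and 30 (2.65 ± 0.43, adjusted p = 0.00016), with 13.5 to 14.1 in the 6 h tumours. S100a6 went from 6.7 to 7.5 in the 6 h rats to 9.2, 9.1, 9.9 and 11.3 (2.58 ± 0.38, adjusted p = 2.9e-05), and S100a11 rose by 2.29 ± 0.43. Lox, which cross-links collagen, measured 7.6, 6.1, 7.6 and 9.0 at 8 d against 4.8 to 5.9 at 6 h (2.16 ± 0.42, adjusted p = 0.002), and the phospholipid-binding Anxa1 rose by 1.97 ± 0.37. Ect2, which acts in cell division, measured 4.4 to 4.7 at 6 h and 5.9, 5.0, 7.0 and 8.2 at 8 d (1.96 ± 0.47, adjusted p = 0.019). It lost its call without 8 d rat 29 or 30 (up to 0.22). In S100a4, S100a6, S100a11, Lox, Anxa1 and Ect2, as in the mitosis mean, rat 30 was the highest and rat 28 the lowest of the 8 d rats. Without rats 29 and 30 none of the 6 was called, S100a4 had a difference of 1.65 (adjusted p = 0.22) and S100a6 one of 1.85 (adjusted p = 0.058). Lox, Anxa1, S100a11 and Ect2 differed by 1.46, 1.35, 1.27 and 0.884. Of 14 tumour matrix genes, 4 rose and 0 fell (median 1.10), among them fibronectin (Fn1, 1.47 ± 0.28) and periostin (Postn, 1.21 ± 0.30). Postn lost its call without any one of 6 h rats 2 to 5 or 8 d rats 30 and 39 (adjusted p up to 0.2). Without rats 29 and 30, 0 of the 14 were called and the median was 0.37.

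**Figure D3:**
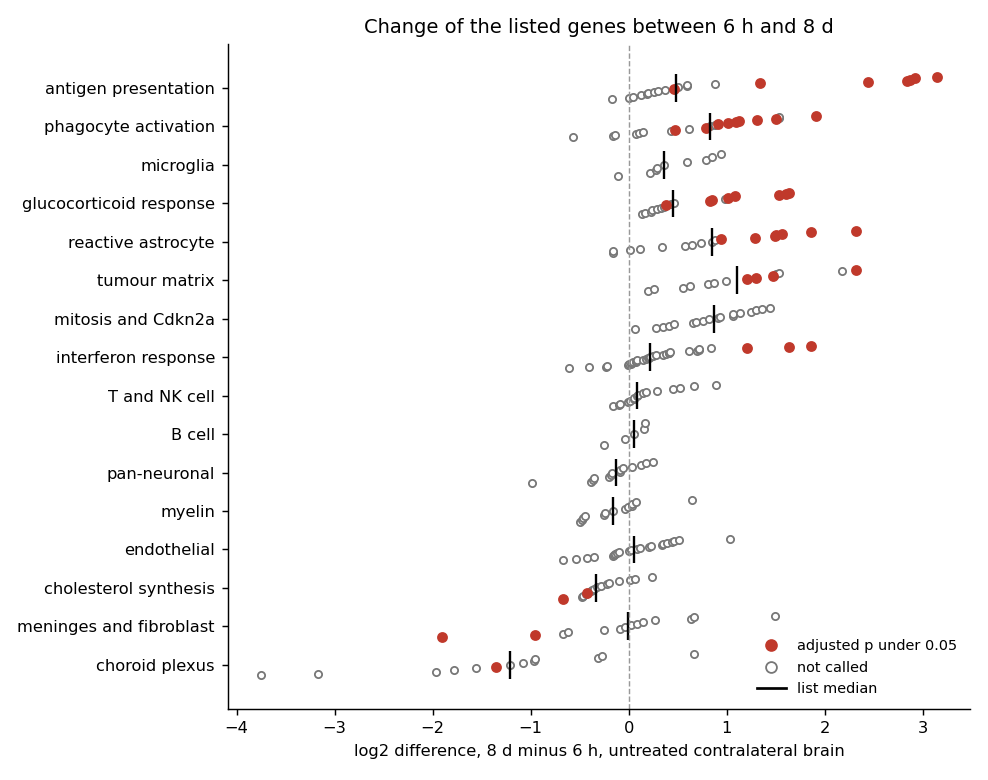
Log2 difference between 8 d and 6 h in untreated contralateral brain (horizontal axis) of the measured genes of 16 lists, 1 point a gene, filled red where called and open where not, with a black line at each list's median. The antigen presentation list reaches 3.14, no mitosis gene is called although all 18 lie above 0, and the choroid plexus list has the lowest median, -1.21.

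The falls were fewer and smaller. Nts, the precursor of the neuropeptide neurotensin, measured 7.7, 9.0, 8.0, 9.2 and 8.7 at 6 h and 6.5, 7.6, 6.3 and 5.8 at 8 d, with rat 28 just below the lowest 6 h rat (difference -2.0 ± 0.41, adjusted p = 0.0037). It was the only one of 11 neuropeptide genes called. Htr5b, a serotonin receptor, went from 5.0 to 6.4 in the 6 h rats to 3.7, 4.2, 4.1 and 4.2 (-1.65 ± 0.36, adjusted p = 0.0095). Its 8 d values lay near the low end of the scale. Pclo, a scaffold of the presynaptic zone, fell by 1.03 ± 0.25 and Camkk2, a calcium-dependent kinase, by 0.86 ± 0.23. The potassium channel gene Kcnk12 fell by 0.83 ± 0.20, Gask1b by 0.91 ± 0.16 and Fam168a by 1.67 ± 0.44. Of 4 other probe sets for Fam168a, 1 was called (-1.49) and 3 lay between -0.15 and 0.06. The other probe sets of Pclo and Gask1b were called (-1.45 and -0.85), and that of Camkk2 was not (-0.40, adjusted p = 0.085). Single arrays ended the calls of Pclo (6 h rat 4, 8 d rats 29 and 30; adjusted p up to 0.063) and Camkk2 (6 h rats 1 to 5, 8 d rats 28, 29 and 30; up to 0.25). They also ended those of Kcnk12 (6 h rat 3, 8 d rats 29 and 39; up to 0.078) and Fam168a (6 h rats 1, 4 and 5, 8 d rats 29, 30 and 39; up to 0.14). Gask1b was the one gene of these 7 that was still called without rats 29 and 30 (-1.0, adjusted p = 0.016); it was not called with only the 13 untreated arrays (adjusted p = 0.22). The other six then, with the pair left out, differed by -1.5 in Nts, -1.72 in Htr5b, -1.54 in Fam168a, -1.04 in Pclo, -0.867 in Kcnk12 and -0.685 in Camkk2 (adjusted p from 0.14 to 0.59). Lists for striatal, cortical and inhibitory neurons (16, 13 and 9 genes), for glutamate and GABA receptors (25) and for myelin (13) gave 0 calls, with 0, 2, 1, 2 and 3 genes at an unadjusted p under 0.05. These are 0, 15.4%, 11.1%, 8% and 23.1% of the lists, against 13.3% of all genes. The striatal mean varied between rats, from 8.88 to 10.18 at 6 h and from 8.73 to 10.01 at 8 d. Dimmer probe sets of Ermn (myelin) and Camk2a (cortical) were called (-1.06 and 0.80, adjusted p = 0.049 and 0.045). Without 48 h rat 18 in the fit the myelin gene Aspa was called (0.649, adjusted p = 0.017). Of 16 cholesterol synthesis genes, 2 fell and 0 rose (median -0.34): Dhcr7 by 0.67 ± 0.13 (adjusted p = 0.0032) and Msmo1 by 0.43 ± 0.11 (adjusted p = 0.045). Msmo1 lost its call without any one of 8 arrays (6 h rats 2 to 5 and each 8 d rat; up to 0.11). With 8 d rats 29 and 30 left out neither was called (-0.638 and -0.443, adjusted p = 0.14 and 0.34).

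Choroid plexus, the tissue in the ventricles that makes cerebrospinal fluid and is rich in transthyretin (Ttr), differed in its markers between rats, and its values are given beside the remaining falls. Ttr measured 7.2, 14.3, 14.0, 13.8 and 13.9 in rats 1 to 5 at 6 h, 7.4, 13.6, 14.2 and 13.8 in rats 15 to 18 at 48 h and 7.4, 7.1, 13.6 and 7.4 in rats 39, 28, 29 and 30 at 8 d. It was thus either near 7 or near 14, and the high level was found in 4 of 5, 3 of 4 and 1 of 4 rats. The mean of 13 choroid plexus genes ran from 6.29 to 8.83 at 6 h and from 6.06 to 7.61 at 8 d. Of the 13, 1 fell and 0 rose (median -1.21), and 10 had an unadjusted p under 0.05, all lower. The one called was Igfbp2, an insulin-like growth factor binding protein, with 10.1, 10.7, 10.5, 9.7 and 10.4 at 6 h and 8.8, 9.0, 9.0 and 8.8 at 8 d (-1.36 ± 0.26, adjusted p = 0.002). Igf2, the growth factor made by choroid plexus and meninges, went from 10.3, 11.3, 11.0, 10.4 and 10.7 to 8.8, 8.8, 8.9 and 8.8 (-1.90 ± 0.39, adjusted p = 0.0042). For it 3 other probe sets, all dimmer, differed by -0.15 to 0.10. The iodide transporter Slc5a5 fell by 1.13 ± 0.23 (adjusted p = 0.0042). The organic anion transporter Slc22a8 fell by 0.93 ± 0.24 (adjusted p = 0.038, and up to 0.16 without 6 h rat 2, 3 or 5 or 8 d rat 29, 30 or 39). Its other probe set differed by -0.43 and was not called (adjusted p = 0.31). Rat 1, low in Ttr at 6 h, had Igf2 at 10.3 and Igfbp2 at 10.1, and rat 29, high in Ttr at 8 d, had them at 8.9 and 9.0. Leaving out rats 29 and 30 gave differences of -1.94 in Igf2, -1.35 in Igfbp2, -1.05 in Slc5a5 and -0.776 in Slc22a8, none of them called (adjusted p from 0.078 to 0.52). With the choroid plexus mean as a covariate the differences were -0.89 in Igfbp2, -1.25 in Igf2, -0.83 in Slc5a5, -0.84 in Slc22a8 and -1.25 in Htr5b, none of them called (adjusted p from 0.051 to 0.13). Igfbp2 is itself 1 of the 13 genes in that mean, so the covariate takes up part of its own change. The class II chains and Cd74 kept their calls (2.61 to 3.3).

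Irradiated rats sampled at the same times give the same interval in other animals. In MRT contralateral brain 11.5% of genes and 9.71% of probe sets were called between 6 h and 8 d, and in BB contralateral brain 2.87% and 2.45%. Of the 368 probe sets called in untreated brain, 137 were called in the same direction after MRT (37.2% of the 368 and 4.55% of the 3013 called after MRT) and 25 in the opposite one. After BB the numbers were 38 (10.3% of the 368 and 5.01% of 759) and 18. All 35 BB arrays carry a processing note of their own, so BB and that difference cannot be told apart.

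The class II rise was seen in all 3 arms. RT1-Da rose by 2.32 ± 0.31 after MRT, from a mean of 9.35 ± 0.74 (SD, n = 9) to 11.67 ± 0.38 (n = 6). It rose by 1.64 ± 0.39 after BB, from 8.80 ± 0.24 (n = 6) to 10.44 ± 1.19 (n = 4). Cd74 rose by 2.14 ± 0.25 and 1.44 ± 0.31. For RT1-Da the MRT change minus the untreated one was -0.82 ± 0.51 (adjusted p = 0.73) and the BB change minus the untreated one -1.5 ± 0.56 (adjusted p = 0.22). A difference between arms was not shown, and these errors leave room for one. In the untreated tumours, which measured 11.3 to 12.4 in RT1-Da and 11.3 to 12.7 in Cd74 at 6 h, the rises were 1.3 and 1.06. Between tumour and contralateral brain 12.5% of genes and 11% of probe sets changed differently, and in the tumours 35.7% and 31.6% were called. The tumour change minus the contralateral one was -1.84 ± 0.51 and -1.78 ± 0.48 (adjusted p = 0.013 and 0.0097). The tumour of 8 d rat 39 is not among these arrays, and that of rat 27 is. Rats 1 to 5 and 28 to 30 gave both tissues, and this fit took their arrays as independent. With rat as a replicate block, 4551 probe sets changed differently in place of 3415. Gpnmb rose after MRT by 2.67 ± 0.21 and had a difference of 0.16 ± 0.26 after BB, and the BB change minus the untreated one was -1.76 ± 0.37 (adjusted p = 0.0045).

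**Figure D4:**
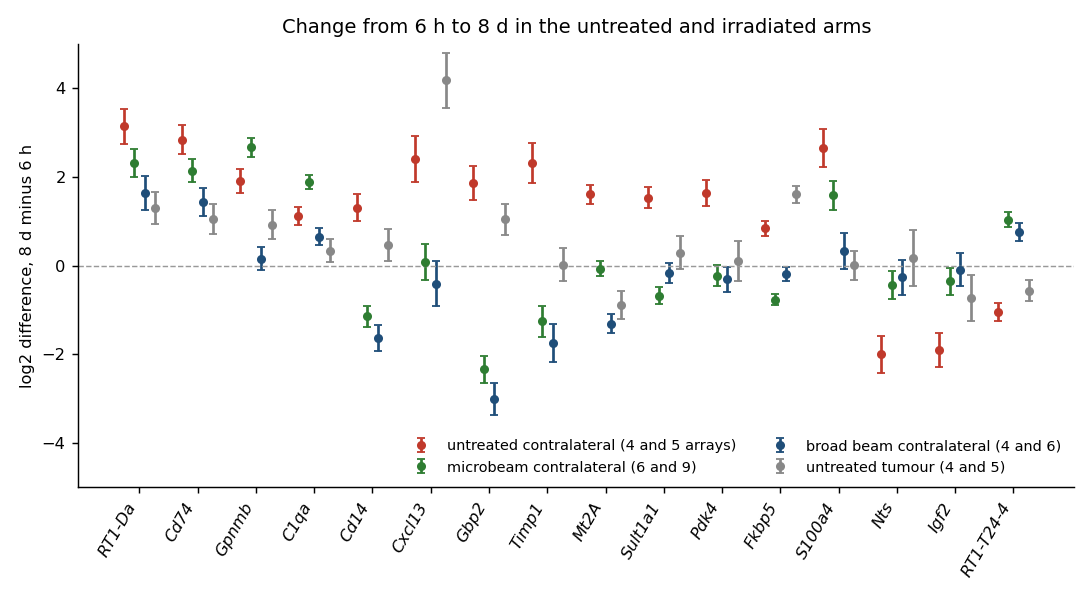
Log2 difference between 8 d and 6 h (vertical axis) with its standard error for 16 genes in untreated contralateral, MRT contralateral, BB contralateral and untreated tumour arrays; numbers in the key are arrays at 8 d and 6 h. RT1-Da and Cd74 are above 0 in all 4, while Cd14, Gbp2 and Timp1 are above 0 in untreated and below 0 in irradiated contralateral brain.

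Other genes went different ways. Gbp2 rose by 1.86 in untreated brain and fell by 2.34 ± 0.30 after MRT and by 3.01 ± 0.37 after BB. Its 6 h means of 11.45 ± 0.52 and 11.23 ± 0.20 in these arms were far above the untreated 5.80 ± 0.40 (SD, n = 9, 6 and 5). Timp1 likewise fell by 1.26 ± 0.35 after MRT and 1.74 ± 0.43 after BB, and Cd14 by 1.14 and 1.64. The changes of these 3 genes differed from the untreated change in both arms (adjusted p from 7e-09 to 2.3e-05). Of the 18 glucocorticoid response genes, 11 changed differently after MRT and 8 after BB, where 3.16% and 1.65% of all genes (2.14% and 1.24% of probe sets) did. For Mt2A the MRT change minus the untreated one was -1.68 ± 0.27 (adjusted p = 4.1e-05), with MRT means of 12.44 ± 0.43 at 6 h and 12.36 ± 0.33 at 8 d. For Sult1a1 it was -2.21 ± 0.29 (adjusted p = 6.6e-07): the level was 8.47 ± 0.32 at 6 h and 7.80 ± 0.49 at 8 d after MRT, while it reached 10.46 ± 0.31 in untreated brain. Sult1a1 was therefore higher in every untreated rat at 8 d (10.1 to 10.8) than in any MRT (7.3 to 8.5) or BB (7.8 to 8.8) rat at that time. Igfbp2 rose by 1.04 ± 0.21 after MRT, and RT1-T24-4 rose by 1.04 ± 0.16 after MRT and 0.76 ± 0.20 after BB, opposite to untreated brain (adjusted p of the difference 1.6e-06, 1.2e-07 and 3.7e-05).

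**Figure D5:**
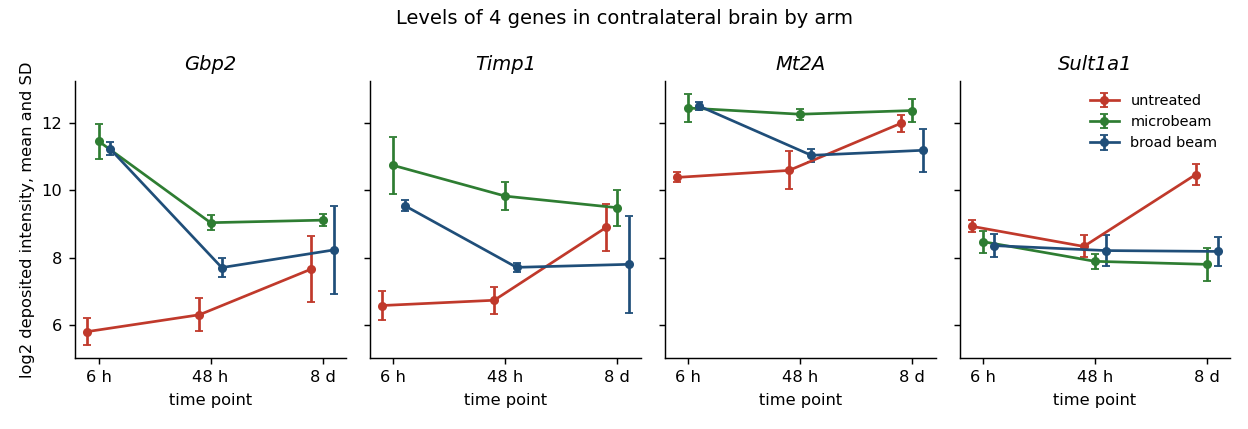
Mean log2 intensity with SD (vertical axis) of Gbp2, Timp1, Mt2A and Sult1a1 in untreated (5, 4 and 4 arrays), microbeam (9, 7 and 6) and broad beam (6, 3 and 4) contralateral brain at 6 h, 48 h and 8 d. Gbp2, Timp1 and Mt2A start low in untreated brain and high in irradiated brain at 6 h, and Sult1a1 at 8 d is highest in untreated brain (10.46).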

How the data were processed

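RNA of 115 tissue samples from 60 rats was measured on Affymetrix rat arrays. The values are the authors' deposited normalized intensity on a linear scale, in whole numbers from 7 to 27837. Per the submitters' processing notes, RMA, Affymetrix Expression Console and MAS5 were used (no MAS5 for the BB arrays). Their order and the scaling are not given in the sources used here. Deposited intensity was turned into log2 here.

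Of 31099 probe sets, 57 controls were left out. Group means of the 56 contralateral arrays were fitted with limma 3.58.1 (R 4.3.3; eBayes with a trend), the tumour comparison with all 115 arrays, and p-values were adjusted by Benjamini-Hochberg over 31042 probe sets. A gene was read from its brightest probe set with 1 symbol: 20826 probe sets had 1, 436 several and 9780 none, giving 14217 genes. The method was tested on simulated data. The number of arrays limits the precision. Named genes were the 15 largest rises and falls among called genes without overlap, and up to 3 called members of each list. Further members and the promoter motifs were picked after their values were seen. The comparison and the lists were chosen with earlier results of these data known. No rat gave arrays at more than 1 time, so 8 d and 6 h are not paired.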

Additional observations from a re-analysis of the deposited data

Results flagged for a closer look

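In 61 genes and 183 groups of 4 or 5 untreated contralateral rats, the rat farthest from the others was set against the range of its group, and 15 stood apart where chance gives about 1 in 20 groups. Of these, 4 were 48 h rat 18: B2m at 13.08, Aif1 at 6.71, Cdkn2a at 6.30 and Fam168a at 6.49. At 6 h they were rat 2 in RT1-Db1 (6.29), rat 4 in S100a6 (6.67) and Anxa1 (6.73), rat 1 in Postn (6.55) and Ttr (7.17) and rat 3 in Pclo (7.30). At 8 d they were rat 28 in Psmb9 (7.16) and Cxcl13 (5.64), rat 30 in Fn1 (12.09) and rat 29 in Ttr (13.64), and at 48 h also rat 15 in Ttr (7.44).

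The change from 6 h to 8 d differed between arms, by limma's test of the difference, in many of the same 61 genes. MRT minus untreated was negative in Psmb9 (-1.47), Cd14 (-2.45), Cxcl13 (-2.31), Plac8 (-4.18), Gbp2 (-4.20), Mt2A (-1.68), Sult1a1 (-2.21), Pdk4 (-1.86), Sgk1 (-1.43), Fkbp5 (-1.61), Timp1 (-3.57), S100a6 (-1.70), Lox (-1.91), Anxa1 (-1.87) and Rbm3 (-1.05). It was positive in C1qc (1.20), Cd68 (1.79), Aif1 (1.46), Igfbp2 (2.39), Slc5a5 (1.37), Slc22a8 (1.44), Gask1b (1.27) and RT1-T24-4 (2.09). BB minus untreated was negative in Psmb9 (-1.91), Gpnmb (-1.76), Cd14 (-2.95), Cxcl13 (-2.80), Plac8 (-3.06), Gbp2 (-4.86), Mt2A (-2.91), Sult1a1 (-1.71), Pdk4 (-1.95), Sgk1 (-1.29), Fkbp5 (-1.04), Ddit4 (-1.25), Timp1 (-4.06), Glul (-0.49), Hspb1 (-2.07), S100a4 (-2.32), S100a6 (-1.98), Anxa1 (-2.36) and Rbm3 (-1.24), and positive in Igfbp2 (1.41), Slc5a5 (1.35) and RT1-T24-4 (1.81). The MRT and BB differences share the untreated arrays.

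Untreated tumour minus untreated contralateral brain was negative in RT1-Da (-1.84), Cd74 (-1.78), Mt2A (-2.49), Vim (-1.26), Timp1 (-2.29), Glul (-1.28), Gfap (-2.15), S100a4 (-2.65), S100a6 (-2.13), S100a11 (-2.36), Fn1 (-1.29), Anxa1 (-1.62) and Rbm3 (-0.97). It was positive in Ddit4 (2.09), Htr5b (2.39) and Gask1b (1.34).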

How the results depend on the processing

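The 368 probe sets called between 8 d and 6 h became 1281 with array quality weights, 94 with only the 13 untreated arrays, 209 with choroid plexus markers as a covariate, 170 with the mitosis list as a covariate and 51 without 8 d rats 29 and 30; of the last 2 sets, 132 and 48 were among the 368. Leaving out 1 array gave 162 to 1001, and only the 9 arrays compared gave 544. For 48 h against 6 h the 5856 became 2241 after quantile normalization, 3345 with a common median, 2849 without the dimmest 30 percent, 2523 with one probe set per gene, 40 with weights, 2531 without BB arrays, and 0 with only the 13 arrays (limma; 4132 at an unadjusted p under 0.05); leaving out 1 array gave 40 to 10274. For 8 d against 48 h the 7039 became 3631, 4132, 3818, 3252, 786, 3773 and 44 under the same settings, and 576 to 11056. With weights, MRT minus untreated gave 1398, BB minus untreated 1578, tumour minus contralateral 9080, MRT 6256 and BB 5493. With one probe set per gene tumour minus contralateral gave 1923, MRT 1751 and BB 452. Leaving out 1 array gave 504 to 1015 for MRT minus untreated, 256 to 825 for BB minus untreated, 2563 to 4126 for tumour minus contralateral, 2967 to 4438 for MRT and 729 to 1401 for BB. A common median moved the split of higher and lower calls from 158 and 228 to 133 and 323 for BB minus untreated, from 512 and 247 to 427 and 453 for BB, from 1731 and 1282 to 1581 and 2087 for MRT, from 4342 and 1514 to 1979 and 1366 for 48 h against 6 h, and from 1813 and 5226 to 1791 and 2341 for 8 d against 48 h. Top2a turned to -0.164 with the mitosis list as a covariate, which contains Top2a. With rat as a replicate block, tumour minus contralateral gave 4551 in place of 3415 (consensus correlation 0.138); of 12 untreated rats with both tissues, 6 correlated above 0.1. The causes of these moves were not tested beyond the fewer samples or genes that a setting uses. RT1-Da, RT1-Db1, RT1-Ba, RT1-Bb and Cd74 kept direction and call in all 26 alternatives run.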

Other observations

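Some single genes known from myeloid cells, picked because they were called, rose in untreated contralateral brain between 6 h and 8 d by limma. Of the listed microglia and of the neutrophil and monocyte genes, 0 of 9 and 0 of 10 were called, where 1.43% of all genes were. The Fc receptors Fcgr3a and Fcgr2b, which bind antibody-coated particles, rose by 1.49 ± 0.31 and 1.21 (adjusted p = 0.0055 and 0.016), Cybb, the catalytic subunit of the phagocyte oxidase, by 1.31 ± 0.31 (adjusted p = 0.016), the engulfment receptor Mertk by 0.72 (adjusted p = 0.0032), the RNA sensor Tlr7 by 0.93 (adjusted p = 0.0029) and the transcription factor Irf8 by 0.85 (adjusted p = 0.044). The plasma proteins Lbp and Alb rose by 1.01 and 0.63 (adjusted p = 0.0023 and 0.013). Vgf, a neuropeptide precursor, fell by 0.88 with overlapping groups (adjusted p = 0.029), and Crhbp, which binds corticotropin-releasing hormone, fell by 0.73 (adjusted p = 0.047). The mean of 19 immediate early genes was 10.04 in 8 d rat 30 and 8.25 to 9.17 in the other untreated contralateral arrays, and none of the 19 was called (2 with an unadjusted p under 0.05, both higher). Jun, 1 of the 19, was called without 48 h rat 18 in the fit (0.7, adjusted p = 0.043).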
